A study of Rattus norvegicus with 14 samples.

Results

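The heat shock proteins and chaperones followed here were the genes whose only symbol in the probe annotation begins with Hspa, Hspb, Hspd, Hspe or Hsph, with Dnaj, or with Cct and a digit of 2 to 8. The rule found 69 of the 14217 genes that the array measures under 1 symbol, and each gene stands for the probe set with the highest mean log2 signal over the 14 arrays. Of these, 58 exceeded the median of the array in 2 or more arrays and entered the tests, beside 10088 tested genes in all. The cells were peripheral blood mononuclear cells (PBMC: lymphocytes and monocytes) that had been separated on a Ficoll density gradient from the blood of female Wistar rats. The groups carry the names of the labels. MTXAP are rats with an arthritis model after 34 days of methotrexate and acupuncture (3 arrays), AP are rats with the arthritis model after 34 days of acupuncture (3 arrays), and HAP are healthy rats after 34 days of acupuncture (3 arrays). RA are rats with the arthritis model before therapy (2 arrays), and NORA are healthy rats before therapy (3 arrays). By a reading of the study's own group codes, which differ from the labels, the arthritis was raised by immunisation with bovine type II collagen, methotrexate was injected weekly, the acupuncture was a thin needle inserted and turned at points of the back and the leg, and all animals were shaved at those points. The age of the rats was not stated. Rats left unstimulated for the same 34 days are not among the groups, so in each comparison of a day 34 group with a group before therapy, time and therapy cannot be told apart. The p-values measure the spread between these arrays only.

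Chaperones hold other proteins in, or return them to, a folded state. Hsp70 proteins bind stretches of unfolded chain and release them with the cycle of ATP, J proteins (the Dnaj genes, with the J domain first described in bacterial DnaJ) bring clients to Hsp70 and start its ATP hydrolysis, Hsp110 proteins exchange the nucleotide, and the chaperonins are barrels that enclose a chain, the cytosolic one (CCT, built of the Cct gene products and Tcp1) being known for actin and tubulin and the mitochondrial one being Hsp60 with its lid Hsp10. Small heat shock proteins hold aggregating chains without ATP. Under heat or other proteotoxic stress, heat shock factor 1 binds repeats of a short unit in the promoters of part of these genes, whereas the genes of the endoplasmic reticulum answer to the unfolded protein response and most J proteins and CCT subunits serve resting cells.

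The unit that heat shock factor 1 binds was searched in the promoters of the members. RefSeq promoters on the rat build GRCr8, from 250 bases before to 50 bases after the start, were matched by Entrez gene identifier for 58 of the 69 members. A form of 3 units, TTCNNGAANNTTC or its reverse complement GAANNTTCNNGAA, was found in 5 of these 58 promoters (8.62%) and in 0.798% of the 33469 promoters of the table. The form of 2 units, TTCNNGAA or GAANNTTC, which the longer form contains, was found in 17 (29.3%) and in 15.9% of all promoters, and CCAAT, on either strand, in 24 (41.4%) and in 37.5%. The 5 promoters with 3 units are printed below with the units in capitals, 5′ to 3′ on the strand of the gene.
Hspe1 (Hsp10), chr9:64084077-64084326, plus strand, the 250 bases before the start: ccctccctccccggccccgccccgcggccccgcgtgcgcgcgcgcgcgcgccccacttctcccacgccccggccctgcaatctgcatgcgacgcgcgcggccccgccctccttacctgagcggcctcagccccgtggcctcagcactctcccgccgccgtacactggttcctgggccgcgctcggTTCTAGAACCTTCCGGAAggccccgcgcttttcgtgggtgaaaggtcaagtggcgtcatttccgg
Hspd1 (Hsp60), chr9:64084256-64084285, minus strand, 248 to 219 bases before the start: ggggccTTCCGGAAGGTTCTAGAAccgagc
Hsph1 (Hsp110), chr12:10427268-10427367, plus strand, the 100 bases before the start: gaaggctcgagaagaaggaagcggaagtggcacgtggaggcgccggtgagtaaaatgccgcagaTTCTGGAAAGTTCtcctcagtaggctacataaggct
Dnaja1 (class A J protein), chr5:60638405-60638434, plus strand, 2 to 31 bases after the start: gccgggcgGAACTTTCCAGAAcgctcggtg
Cct4 (CCT subunit), chr14:101193074-101193103, plus strand, 18 to 47 bases after the start: gcgtcgctTTCTGGAAGGTTCgtggaggcg
Hspd1 and Hspe1 lie head to head, their 2 promoter windows share 211 bases, and their element is the same 18 bases read on opposite strands. In the windows of the heat-inducible genes Hspa1a, Dnajb1 and Hspb1 the form of 3 units had 0 matches, and that of 2 units had 0 in Hspa1a and 2 in each of Dnajb1 and Hspb1. A match of letters is a description of the sequence and not a bound site, and no match says only that these letters are not in the window.

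Chaperones were among the steadily measured genes of these cells. In all, 48 of the 69 members were above the array median on all 14 arrays (7344 of all 14217 genes), and the SD of the log2 signal over the 14 arrays had a median of 0.32 over the 58 tested members and of 0.38 over all tested genes. The signal of a probe set also depends on its own probes, so levels were compared between arrays and never between genes. The 11 members that did not pass the filter were Hspa1l, Hspa2, Hspa4l, Hspa12b, Hspb1, Hspb2, Hspb3, Hspb8, Dnajb3, Dnajb7 and Dnajc22. They include 4 of the 7 small heat shock proteins and the testis forms Hspa1l and Hspa2. Hspb1 (Hsp27) had 17.8, 50.5 and 132 in MTXAP, 17.2, 4.38 and 51.7 in AP, 73.1, 8.75 and 22.8 in HAP, 32.8 and 26.6 in RA, and 18.7, 53.1 and 32.6 in NORA, and was above the array median on 1 array. Just outside the filter, at 1 array, also lay Dnajc22 and Hspa12b, and just inside, at 2 arrays, Dnajb13 and Hspa12a. The constitutive Hspa8 and the inducible Hspa1b and Hsp90aa1 have probe sets that carry several symbols and no value is given for them.

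The cytosolic chaperonin had the lowest median SD of the roles (0.21). All 7 Cct genes measured were above the median on all 14 arrays, with SDs of 0.13 to 0.32. Cct5 had the lowest SD of all members (0.13), with signals of 8469.9, 8938 and 10141 in MTXAP, 9875, 8929 and 8394 in AP, 9672, 10092 and 9347 in HAP, 9374 and 9906 in RA, and 11082, 8732 and 7946 in NORA, a range of 1.39-fold. The ranges of the groups overlapped throughout. Cct2 spread more widely, with 3669, 3966 and 5213 in MTXAP, 4537, 3563 and 4561 in AP, 4553, 4927 and 4279 in HAP, 5883 and 5098 in RA, and 5098, 3934 and 2639 in NORA, and its lowest value was NORA replicate 3. For 5 of the 7 subunits NORA replicate 3 was the lowest of the 14 arrays.

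NORA replicate 3 was low for many chaperones. It was the lowest array for 26 of the 58 tested members (44.8%), against 22.8% of all tested genes, and the highest for 7 (12.1%), against 19.5%. MTXAP replicate 3 was the highest for 11 members (19.0%), against 12.7% of all tested genes. NORA replicate 3 also had the highest array median (149, against 104 to 131 on the other arrays) and the lowest mean correlation with the other arrays (0.860, against 0.887 to 0.910), and most values against NORA are given below also without it.

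**Figure D1:**
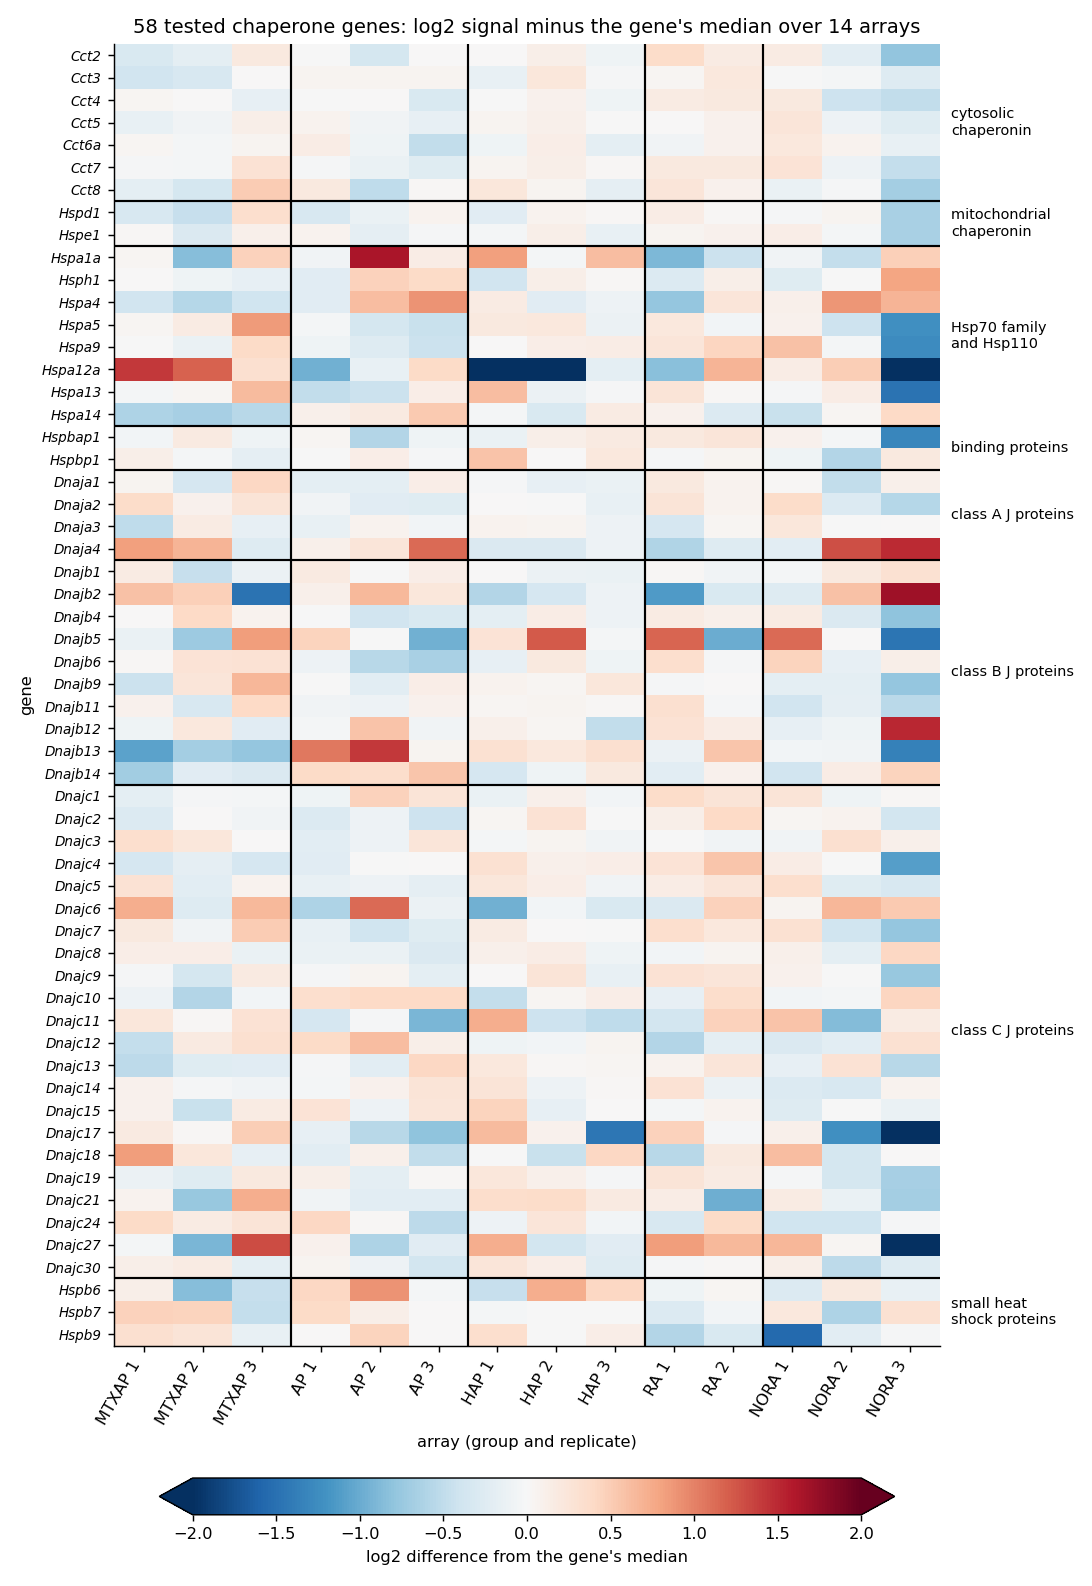
Each row is 1 of the 58 tested chaperone genes, grouped by role, each column 1 array, and the colour is the log2 signal minus the median of the gene over the 14 arrays, with colours ending at 2 on either side. NORA 3 is the lowest array for 26 of the 58 genes, among them 5 of the 7 CCT genes and both mitochondrial chaperonin genes, and the strong single colours belong to Hspa12a, Dnajc27, Dnajc17, Dnajb5 and Dnajb2, the 5 genes with the highest SD.

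Hspd1 and Hspe1, the mitochondrial pair that shares the promoter region printed above, had 2-fold or smaller ranges over the 14 arrays. Hspd1 had 3719, 3388 and 5853 in MTXAP, 3734, 4237 and 4894 in AP, 3973, 4908 and 4729.8 in HAP, 5181 and 4734 in RA, and 4574, 4828 and 2980.1 in NORA. Hspe1 had 5582, 4483 and 5868 in MTXAP, 5758, 4855 and 5371 in AP, 5313, 5952 and 4929 in HAP, 5693 and 5801 in RA, and 6025, 5307 and 3475 in NORA. Both were lowest on NORA replicate 3, and in neither did RA separate from any other group.

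Hsp70 and Hsp110 genes had the highest median SD of the roles (0.49). Hspa1a, the stress-inducible cytosolic Hsp70, whose sequence is nearly the same as that of Hspa1b so that its probe set may read both, was above the median on 10 arrays. It had 150.1, 80.9 and 200.3 in MTXAP, 139.9, 451 and 161 in AP, 258, 142 and 223 in HAP, 78.3 and 108 in RA, and 139, 105 and 202 in NORA. The 2 RA arrays were the first and the fourth lowest and AP replicate 2 was the highest array by far. Hspa5 (BiP), the Hsp70 of the endoplasmic reticulum, had 9922, 10759 and 17435 in MTXAP, 9312, 7519 and 7058 in AP, 11056, 11082 and 8890.3 in HAP, 11143 and 9277 in RA, and 10214, 7245 and 4119.6 in NORA. All MTXAP arrays lay above all AP arrays, and the NORA range overlapped those of all other groups. Hspa9 (mortalin), the mitochondrial Hsp70, had 2107, 1930.1 and 2743 in MTXAP, 1994, 1761 and 1572 in AP, 2121, 2307 and 2344 in HAP, 2507 and 2846 in RA, and 3189, 2056 and 889 in NORA, so that AP lay below RA and below HAP without overlap.

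Hspa4 and Hsph1, Hsp110 proteins that exchange the nucleotide of Hsp70, spread more within groups. Hspa4 had 245, 214 and 243 in MTXAP, 274, 489 and 597 in AP, 359, 272 and 297 in HAP, 186 and 376 in RA, and 343, 587 and 509 in NORA. The MTXAP arrays were all below the AP and the HAP arrays, and the RA pair lay 2-fold apart. Hsph1 had 819.8, 770.3 and 734 in MTXAP, 703, 1123 and 1072 in AP, 629.8, 888 and 835 in HAP, 678 and 888 in RA, and 691, 817 and 1419.9 in NORA, with overlap between all groups. Hspa14, an Hsp70 found with ribosomes, had 496, 484 and 523 in MTXAP, 824, 868 and 1097 in AP, 745, 621 and 858 in HAP, 808 and 635 in RA, and 559.9, 785 and 1011 in NORA, and MTXAP was below every other array. Hspa12a, a distant Hsp70 relative, had the highest SD of all members (1.54), with 159, 135 and 74.3 in MTXAP, 30.5, 53.7 and 77.8 in AP, 8.91, 8.57 and 52.2 in HAP, 33.3 and 95.0 in RA, and 66.2, 84.0 and 5.02 in NORA, and the highest 2 arrays were both of MTXAP.

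The 3 tested small heat shock proteins were Hspb6, Hspb7 and Hspb9. Hspb7 was above the median on all arrays, with 746, 733 and 387 in MTXAP, 706, 586 and 541 in AP, 528, 540.3 and 537 in HAP, 446 and 522 in RA, and 625, 352 and 670.3 in NORA. Hspb9 had 135, 129 and 97.3 in MTXAP, 109, 147 and 109 in AP, 137, 108 and 119 in HAP, 71.9 and 87.8 in RA, and 36.9, 93.2 and 107 in NORA. Its 2 RA arrays lay below all 9 arrays of day 34.

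J proteins were the largest group, with 4 members in class A, 12 in class B and 23 in class C. Dnaja4, a class A J protein, had 2644, 2378 and 1243 in MTXAP, 1593, 1770.2 and 3256 in AP, 1219, 1220.4 and 1397 in HAP, 986 and 1250.4 in RA, and 1289.8, 3657 and 4190.1 in NORA. NORA held both the highest arrays and 1 array at the level of RA and HAP. Dnajb2, a class B J protein that takes clients to the proteasome, had 5534, 5144 and 1333 in MTXAP, 3973, 5813 and 4310.2 in AP, 2461, 2910.0 and 3429 in HAP, 1682 and 2986 in RA, and 3073, 5539 and 11994 in NORA, with MTXAP replicate 3 lowest and NORA replicate 3 highest by far. Dnaja1, the partner of cytosolic Hsp70 with an element in the set above, had 2667, 2033 and 3426 in MTXAP, 2227, 2233 and 2804 in AP, 2526, 2284 and 2348 in HAP, 2946 and 2677 in RA, and 2600.2, 1828 and 2756 in NORA, with all groups overlapping apart from RA and HAP.

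In class B, Dnajb1 (Hsp40), the J protein most induced by heat, was steady (SD 0.19), with 1681, 1097 and 1381 in MTXAP, 1708, 1490.4 and 1645 in AP, 1519, 1382 and 1375 in HAP, 1529 and 1439 in RA, and 1464, 1714 and 1860.0 in NORA. Dnajb6, which keeps aggregating chains soluble, had 1314, 1572 and 1583 in MTXAP, 1208, 881 and 828 in AP, 1158, 1476 and 1227 in HAP, 1634 and 1278 in RA, and 1769, 1161 and 1407 in NORA. Its AP arrays lay below the MTXAP and the RA arrays without overlap. Dnajb13, known from the axoneme of sperm and cilia, was dim, with 35.6, 46.4 and 43.6 in MTXAP, 155, 198 and 77.4 in AP, 92.3, 86.6 and 93.1 in HAP, 68.4 and 109.6 in RA, and 71.6, 71.1 and 29.2 in NORA. It was above the array median on 2 arrays, both of AP, and the MTXAP arrays were below all others but NORA replicate 3. Dnajb9 (ERdj4), a target of the unfolded protein response, had 612, 969 and 1307 in MTXAP, 820.1, 712 and 899 in AP, 866, 849 and 958 in HAP, 810.3 and 823 in RA, and 716, 715 and 481 in NORA.

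Class C holds J proteins with little in common beside the J domain. Dnajc3 (p58IPK), which acts in the endoplasmic reticulum, had the lowest SD of the class (0.17), with 2910.3, 2686 and 2329.6 in MTXAP, 1984, 2143 and 2733 in AP, 2247, 2389 and 2196 in HAP, 2279.9 and 2203 in RA, and 2189, 2883 and 2463 in NORA. Dnajc2, a J protein of the ribosome, had 1160.1, 1409 and 1333 in MTXAP, 1154, 1302 and 1044 in AP, 1432, 1701 and 1383 in HAP, 1521 and 1843 in RA, and 1428, 1459.7 and 1086 in NORA. Its AP arrays were below all HAP and RA arrays. The widest members were Dnajc27 (SD 1.12) and Dnajc17 (SD 0.93), both with their lowest signal on NORA replicate 3 (13.4 and 26.7).

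**Figure D2:**
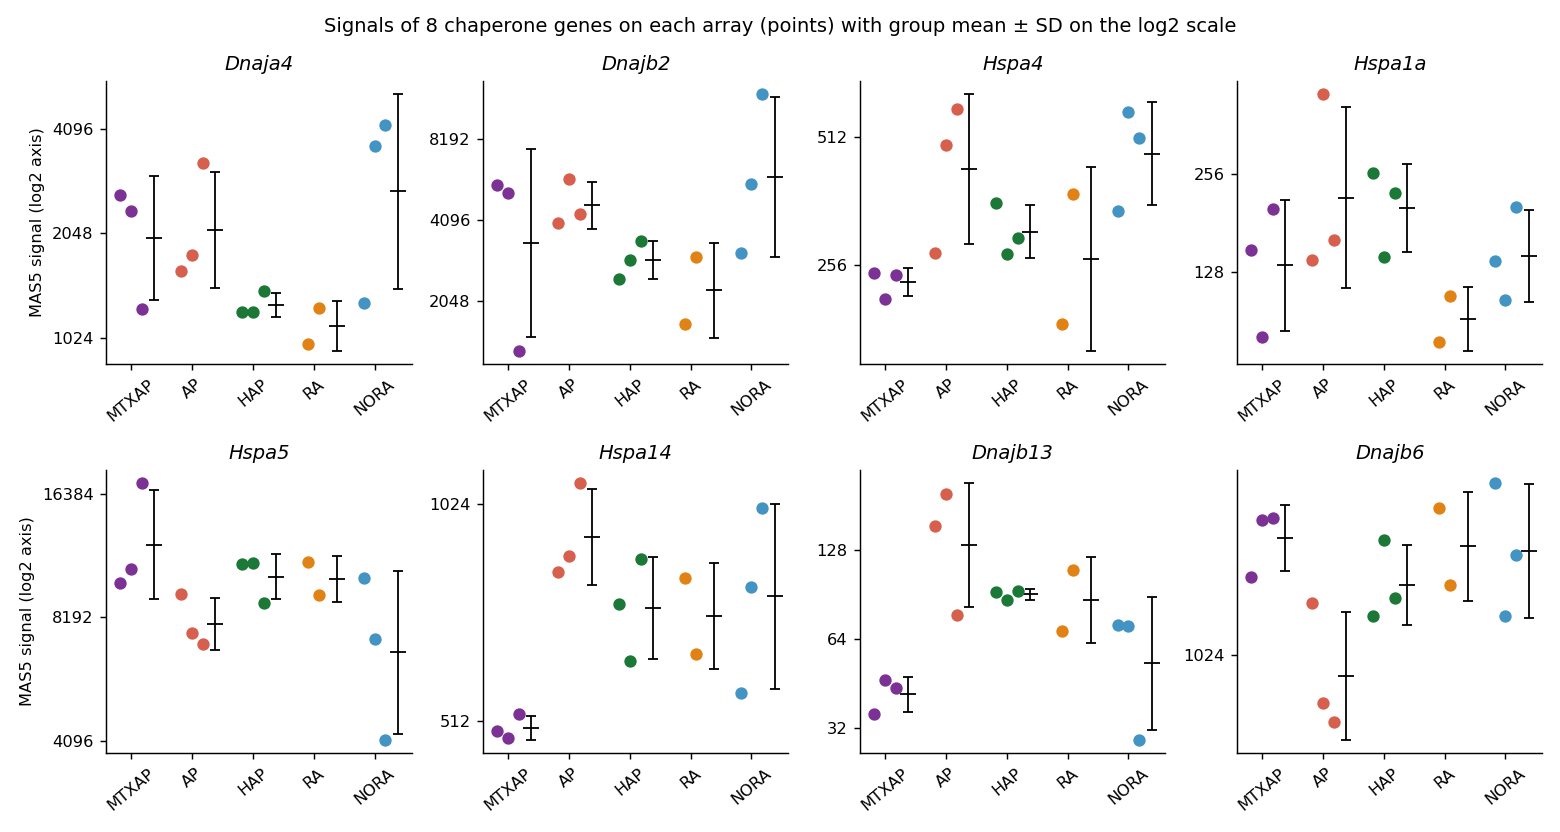
Points are the MAS5 signals of single arrays on a log2 axis, by group, for 8 chaperone genes, and the bars beside them give the group mean and SD of the log2 signals. In Dnaja4 and Dnajb2 NORA 3 is the highest array and NORA 1 lies near the RA arrays, Hspa1a is highest on AP 2, and Hspa14 and Dnajb13 are low on all 3 MTXAP arrays.

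The first comparison asked how the arthritis model differed from healthy rats before therapy. In RA, 2 J protein genes, Dnaja4 and Dnajb2, were more than 2-fold lower than in NORA on average, and 39 of the 58 tested chaperones were higher, of which 2, Dnajc17 and Dnajc27, by more than 2-fold, both with NORA replicate 3 as their lowest array. No member was called by limma at an adjusted p of 0.05 (lowest adjusted p = 0.583, 0% of all tested genes called), and 6 were at an unadjusted p under 0.05 (8.13% of all tested genes). Without limma's moderation of the variances 0 members were called in any comparison. Past the thresholds of the study, an unadjusted p under 0.05 and a fold over 2, were 2 members lower in RA (3.86% of all tested genes) and 0 higher (0.476%). Dnaja4 had a log2 signal of 10.12 ± 0.24 (mean ± SD, n = 2) in RA and 11.40 ± 0.93 (SD, n = 3) in NORA, a log2 fold change of -1.28 ± 0.50 (SE, limma adjusted p = 0.583). Dnajb2 had 11.13 ± 0.59 (SD, n = 2) in RA and 12.52 ± 0.99 (SD, n = 3) in NORA, a log2 fold change of -1.39 ± 0.63 (limma adjusted p = 0.583), but 1.14 with its second probe set, which did not pass the filter. Without NORA replicate 3 the changes of the probe sets used were -0.97 for Dnaja4 and -0.88 for Dnajb2, and neither kept an unadjusted p under 0.05 without NORA replicate 2, NORA replicate 3 or RA replicate 1. With weights for array quality Dnaja4 was called (-1.60 ± 0.33, adjusted p = 0.0333). That was 1 of 58 members, beside 4.13% of all tested probe sets. Hspa4 had a log2 fold change of -0.82 ± 0.37, with overlap between the groups, and the pair of RA arrays decided its size, which was -0.31 without RA replicate 1 and -1.33 without RA replicate 2. It was -0.76 without NORA replicate 3.

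Of the 58 members, 39 had a log2 fold change above 0 in RA against NORA (57.0% of all tested genes did), with a median of 0.24 over the members and 0.08 over all tested genes. In 11 members all RA arrays were above all NORA arrays (12.7% of all tested genes) and in 2 all were below (8.65%). Of the 7 Cct genes 6 were above 0, with a median of 0.30, of the 22 class C J proteins 15, with a median of 0.26, and of the 8 Hsp70 and Hsp110 genes 4, with a median of 0.24. Of the members higher in RA, the lowest p-values were those of Dnajc19, a J protein of the mitochondrial import motor (0.55 ± 0.23), Dnajc4 (0.74 ± 0.31), and Dnajb11 (ERdj3), which works with BiP (0.52 ± 0.23). These were, without NORA replicate 3, 0.39 for Dnajc19, 0.35 for Dnajc4 and 0.43 for Dnajb11, and Dnajb11 had 0.34 without RA replicate 1. Without NORA replicate 3 the median of the members was 0.13, against 0.04 for all tested probe sets, that of the Cct genes 0.14 (5 of 7 above 0), of class C 0.20 (17 of 22) and of the Hsp70 and Hsp110 genes 0.05 (5 of 8).

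Platelet and erythroid markers differed between the same arrays, as the plot of marker scores shows. All 12 tested platelet markers of the 16 listed were lower in RA than in NORA, with a median log2 fold change of -1.55, and their summed signal ran from 110230.0 to 153442 in RA and from 156283 to 476504 in NORA. All 15 tested erythroid markers of the 21 listed were lower in RA too, with a median of -1.38, and their sums ran from 58074 to 98194 in RA and from 67547 to 312890.0 in NORA. The medians without NORA replicate 3 were -1.11 for the platelet markers and -0.42 for the erythroid markers, of which 14 were lower. A score, the mean of the markers after each is centred over the arrays, was -1.12 and -0.63 in RA and -0.65, 0.91 and 1.37 in NORA for platelets. The erythroid score was -3.85 on MTXAP replicate 3, the array with the lowest Dnajb2, and 2.20 on NORA replicate 3, the array with the highest. Of the 16 tested T cell markers 14 were higher in RA than in NORA, with a median of 0.33, and of the 6 tested neutrophil markers 5, with a median of 0.80. The part of platelets, erythroid cells, T cells and neutrophils in these results was not tested. In a mixed cell sample, fewer cells of a type and less RNA per cell cannot be told apart. As for the labelled cells, 16 of 16 T cell, 7 of 7 B cell and 7 of 8 monocyte markers on the array were tested. So were 12 of 12 platelet, 15 of 15 erythroid and 6 of 6 neutrophil markers on the array. Of 9 hepatocyte genes on the array 3 were tested (Alb, Ttr and Serpina1), while Apoa1, Fga, Fgb and Fgg were above the median on 0 arrays.

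**Figure D3:**
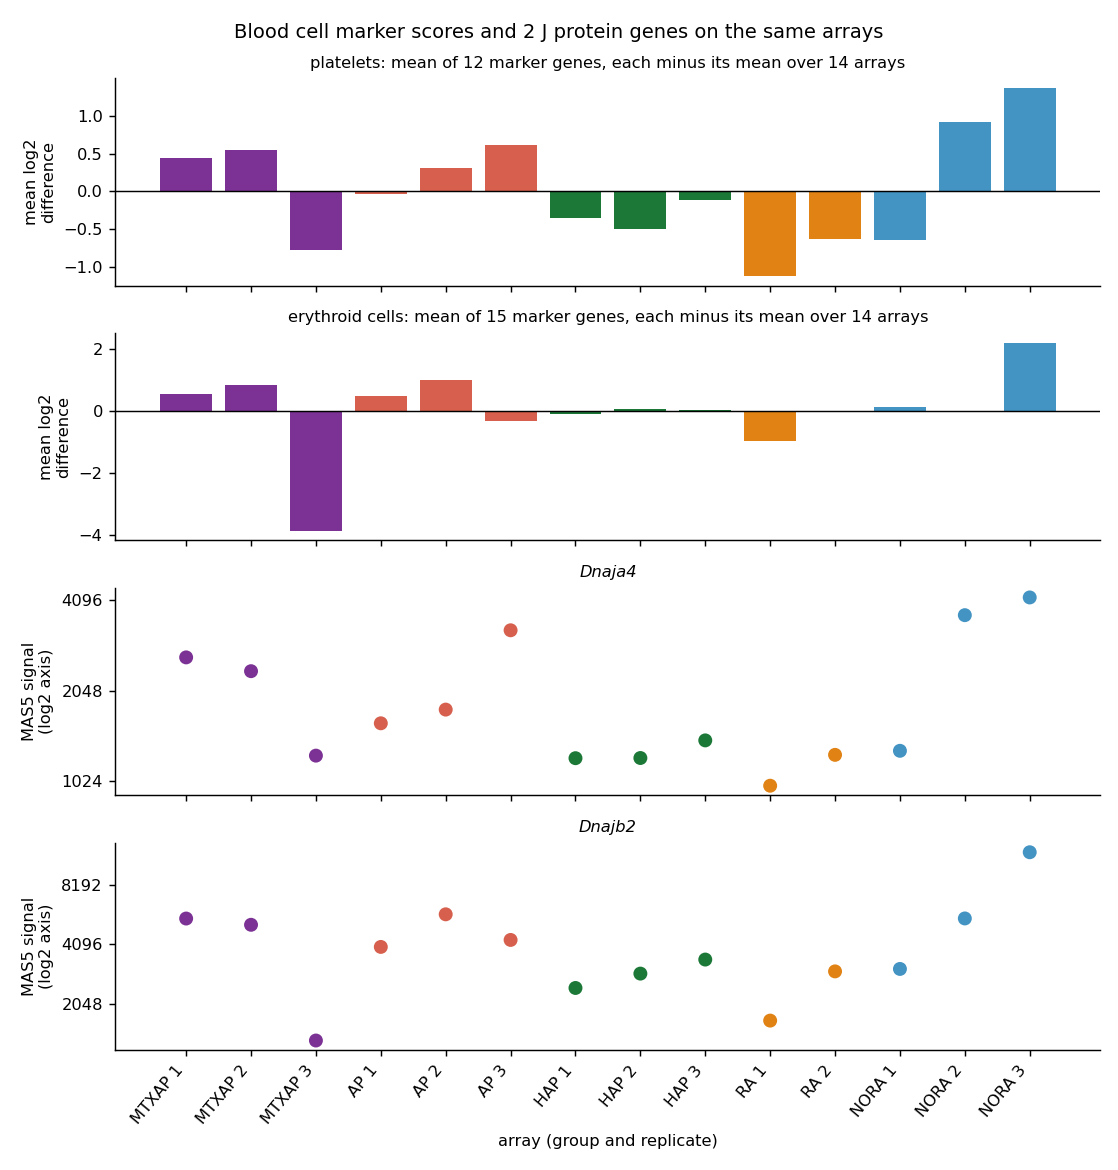
The upper panels give the platelet and the erythroid score of each array (mean log2 difference of 12 and 15 marker genes from their means over the 14 arrays), and the lower panels the MAS5 signals of Dnaja4 and Dnajb2 on a log2 axis, with arrays in the same order and coloured by group. The arrays NORA 2 and NORA 3 are highest in the platelet score (0.91 and 1.37) and in Dnaja4, and MTXAP 3 is lowest in the erythroid score (-3.85) and in Dnajb2.

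The second comparison asked what differed in the arthritis model after 34 days of acupuncture. It shares the RA arrays with the first, there as the tested group and here as the reference, so opposite signs in the 2 are not independent results. In AP, Hspa1a was 2.36-fold higher than in RA on average, and all 7 Cct genes and 15 of the 22 class C J proteins had lower means. By limma 0 members were called (lowest adjusted p = 0.616, 0% of all tested genes called) and 4 were at an unadjusted p under 0.05 (6.99% of all tested genes). Past the thresholds of the study was 1 member higher in AP (2.48% of all tested genes) and 0 lower (0.644%). That member was Hspa1a, with 7.76 ± 0.92 (SD, n = 3) in AP and 6.52 ± 0.33 (SD, n = 2) in RA, a log2 fold change of 1.24 ± 0.53 (limma adjusted p = 0.616). Without AP replicate 2 it was 0.71, and it had no unadjusted p under 0.05 without AP replicate 2, RA replicate 1 or RA replicate 2. Dnajc12, a J protein tied to the aromatic amino acid hydroxylases, had 337, 396 and 279.6 in AP, against 172 and 225 in RA, a log2 fold change of 0.76 ± 0.28. Lower in AP by an unadjusted p under 0.05 were Dnajc2 (-0.53 ± 0.21) and Dnajb6 (-0.59 ± 0.25), both without overlap. The second probe set of Dnajc2, which did not pass the filter, had 0.12.

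In AP against RA, 21 of the 58 members had a log2 fold change above 0 (51.0% of all tested genes did), and the median was -0.11 over the members and 0.01 over all tested genes. In 17 members all AP arrays were below all RA arrays (19.6% of all tested genes) and in 8 all were above (17.5%). All 7 Cct genes were below 0, with changes of -0.39 to -0.06 and a median of -0.26. Beside them 12 of the 16 tested T cell markers were lower in AP, with a median of -0.39, and 6 of the 7 tested monocyte markers were higher, with a median of 0.72, and their part was not tested. The class C median was -0.12 and that of Hsp70 and Hsp110 genes 0.06. Dnaja4 had 0.92 ± 0.50 and Dnajb2 1.05 ± 0.63, without overlap, and beside them all 12 platelet markers were higher in AP, with a median of 1.35, and 14 of 15 erythroid markers, with a median of 0.78. Their part in these values was not tested.

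The third comparison set methotrexate and acupuncture against the arthritis model before therapy. It shares the RA arrays with the first and the second. The 1 member past the thresholds of the study, Dnajb13, was measured on dim signals. By limma 0 members were called (lowest adjusted p = 0.922, 0% of all tested genes called), 2 were at an unadjusted p under 0.05 (5.09% of all tested genes), and 1 was past the thresholds of the study, lower (0.397% of all tested genes lower, 1.66% higher). Dnajb13 had 5.38 ± 0.20 (SD, n = 3) in MTXAP and 6.44 ± 0.48 (SD, n = 2) in RA, a log2 fold change of -1.06 ± 0.44 (limma adjusted p = 0.922), on signals below the median of every one of these arrays, and it had passed the filter through AP. Without RA replicate 2 it was -0.72, and it had no unadjusted p under 0.05 without RA replicate 2, MTXAP replicate 1 or MTXAP replicate 3. Dnaja4 had 0.84 ± 0.50, but -0.23 with its second probe set. Beside it 12 of 12 platelet markers were higher in MTXAP (median 0.93) and 9 of 15 erythroid markers were lower (median -0.53), whose part was not tested. The erythroid score was 0.53 and 0.84 on MTXAP replicates 1 and 2, above both RA arrays (-0.97 and 0.01). On MTXAP replicate 3 it was -3.85. The other member at an unadjusted p under 0.05 was Dnajc4, with 133, 148 and 133 in MTXAP, against 204 and 246 in RA (-0.70 ± 0.31). Of the 58 members 23 were above 0 (47.3% of all tested genes), with a median of -0.08 over the members and -0.02 over all tested genes, and of the 7 Cct genes 6 were below 0, with a median of -0.18, beside 15 of the 16 tested T cell markers, with a median of -0.50, whose part was not tested either. All MTXAP arrays were below all RA arrays in 11 members (13.2% of all tested genes) and above in 2 (8.90%). Without MTXAP replicate 2 the median of the members was -0.01, and without MTXAP replicate 3 it was -0.15.

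The fourth comparison followed healthy rats over the same time. In HAP, Dnaja4 was lower than in NORA, a comparison that shares the NORA arrays with the first, and Hspb9 was higher without overlap. By limma 0 members were called (lowest adjusted p = 0.747, 0% of all tested genes called), 1 was at an unadjusted p under 0.05 (5.74% of all tested genes), and it was past the thresholds of the study, lower (1.11% of all tested genes lower, 0.783% higher). This was Dnaja4, with 10.32 ± 0.11 (SD, n = 3) in HAP and 11.40 ± 0.93 (SD, n = 3) in NORA, a log2 fold change of -1.08 ± 0.44 (limma adjusted p = 0.747), with NORA replicate 1 among the HAP values. Without NORA replicate 3 it was -0.77, and it had no unadjusted p under 0.05 without NORA replicate 2, NORA replicate 3, HAP replicate 1 or HAP replicate 2. Hspb9 had a log2 fold change of 0.75 ± 0.35 and, without NORA replicate 1, 0.27, and without NORA replicate 3, 1.04. Platelet markers were lower in HAP in 12 of 12 cases, with a median of -0.82, and erythroid markers in 14 of 15, with a median of -0.87, and their part was not tested. Leaving out NORA replicate 3, 12 of 12 platelet markers were lower in HAP (median -0.38), but only 6 of 15 erythroid markers (median 0.09). Of the 58 members 39 were above 0 (61.8% of all tested genes), with a median of 0.18 over the members and 0.10 over all tested genes. Without NORA replicate 3 the median was 0.04 over the members and 0.05 over all tested probe sets. In 5 members all HAP arrays were above all NORA arrays (7.24% of all tested genes) and in 1 below (2.54%).

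The fifth comparison set methotrexate with acupuncture against acupuncture alone, both at day 34. In MTXAP, Hspa14, Dnajb14, Hspa4, Dnajc10 and Hspb6 were lower than in AP and Dnajb6 was higher, each at an unadjusted p under 0.05. By limma 0 members were called (0% of all tested genes called), and the lowest adjusted p apart from that of Dnajb13, described below, was 0.188, for Hspa14. At an unadjusted p under 0.05 were 6 members lower (8.73% of all tested genes) and 1 higher (6.25%), and past the thresholds of the study 1 lower (2.38%) and 0 higher (1.61%). One of these 6, and the one past the thresholds, was Dnajb13. Its signals in MTXAP (35.6, 46.4 and 43.6) were far below the array medians, and it had passed the filter through AP alone, so that its lower value in MTXAP (-1.68 ± 0.40, adjusted p = 0.186) was in part set by the filter and is given as a description only. With signals above the median on at least 7 arrays, 0 members were past the thresholds. Hspa14 had 8.97 ± 0.06 in MTXAP and 9.85 ± 0.22 in AP (SD, n = 3 each), a log2 fold change of -0.88 ± 0.24 (limma adjusted p = 0.188). Hspa4 had -0.88 ± 0.33. Dnajb14, a J protein of the endoplasmic reticulum membrane, had 169.9, 237 and 226 in MTXAP, against 360.4, 353 and 405 in AP (-0.83 ± 0.24), and Dnajc10 (ERdj5), a disulfide reductase of the endoplasmic reticulum, had 422, 303 and 436 in MTXAP, against 573, 598 and 600.4 in AP (-0.63 ± 0.24). The second probe set of Dnajc10, which passed the filter, had 0.016 in this comparison, and that of Dnajb14, which did not, had 0.36.

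Further chaperones of the endoplasmic reticulum had changes of both signs in MTXAP against AP. Hspa5 had 13.59 ± 0.44 in MTXAP and 12.95 ± 0.21 in AP (SD, n = 3 each), a log2 fold change of 0.64 ± 0.32 (adjusted p = 0.370), and without MTXAP replicate 3 it was 0.39. The changes were 0.47 ± 0.40 for Hspa13, 0.22 ± 0.18 for Dnajc3, 0.19 ± 0.27 for Dnajb9, 0.08 ± 0.21 for Dnajb11 and -0.30 ± 0.19 for Dnajc1, and none of them passed a test. Dnajb6 had a change of 0.63 ± 0.22 and Dnaja2, a cytosolic class A J protein, one of 0.42 ± 0.23, with 5991, 4895 and 5533 in MTXAP, against 4415, 3964 and 3910.5 in AP. Of the 58 members 31 were above 0 (46.8% of all tested genes), with a median of 0.04 over the members and -0.04 over all tested genes. The groups did not overlap in 7 members lower and 7 higher in MTXAP (11.8% of all tested genes in each direction). Without MTXAP replicate 3 the median of the members was -0.06. All 9 tested NK cell markers were lower in MTXAP than in AP, with a median of -0.74, of the 7 tested monocyte markers 6, with a median of -0.75, and of the 15 tested erythroid markers 13, with a median of -1.10, and their part was not tested. The erythroid score was 0.53, 0.84 and -3.85 on the MTXAP arrays and 0.48, 0.98 and -0.31 on the AP arrays. Only MTXAP replicate 3 lay below the AP range.

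The sixth comparison, of arthritic with healthy rats after acupuncture, gave no member at an unadjusted p under 0.05. By limma 0 members were called (lowest adjusted p = 0.810, 0% of all tested genes called), 4.36% of all tested genes were at an unadjusted p under 0.05, and 0 members were past the thresholds of the study (1.26%). Dnaja4 had 0.71 ± 0.44 and Dnajb2 0.67 ± 0.56. Hspa12a had 1.67 ± 1.00, but all 6 of its signals were below the array medians, it had passed the filter through 2 arrays of MTXAP, and the value was 2.53 without HAP replicate 3, so its size is not settled. Platelet markers were higher in AP than in HAP in 11 of 12 cases, with a median of 0.73, erythroid markers in 13 of 15, with a median of 0.26, and NK cell markers in 8 of 9, with a median of 0.74, and their part was not tested. Dnajb14 had 360.4, 353 and 405 in AP, against 218, 259 and 314 in HAP (0.51 ± 0.24), and Dnajc2 1154, 1302 and 1044 in AP, against 1432, 1701 and 1383 in HAP (-0.37 ± 0.19). Both reversed with the second probe set of the gene, which did not pass the filter, to -0.97 for Dnajb14 and 0.78 for Dnajc2. Of the 58 members 21 were above 0 (45.8% of all tested genes), with a median of -0.09 over the members and -0.03 over all tested genes, and the groups did not overlap in 8 members lower (9.91% of all tested genes) and 6 higher (7.31%).

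**Figure D4:**
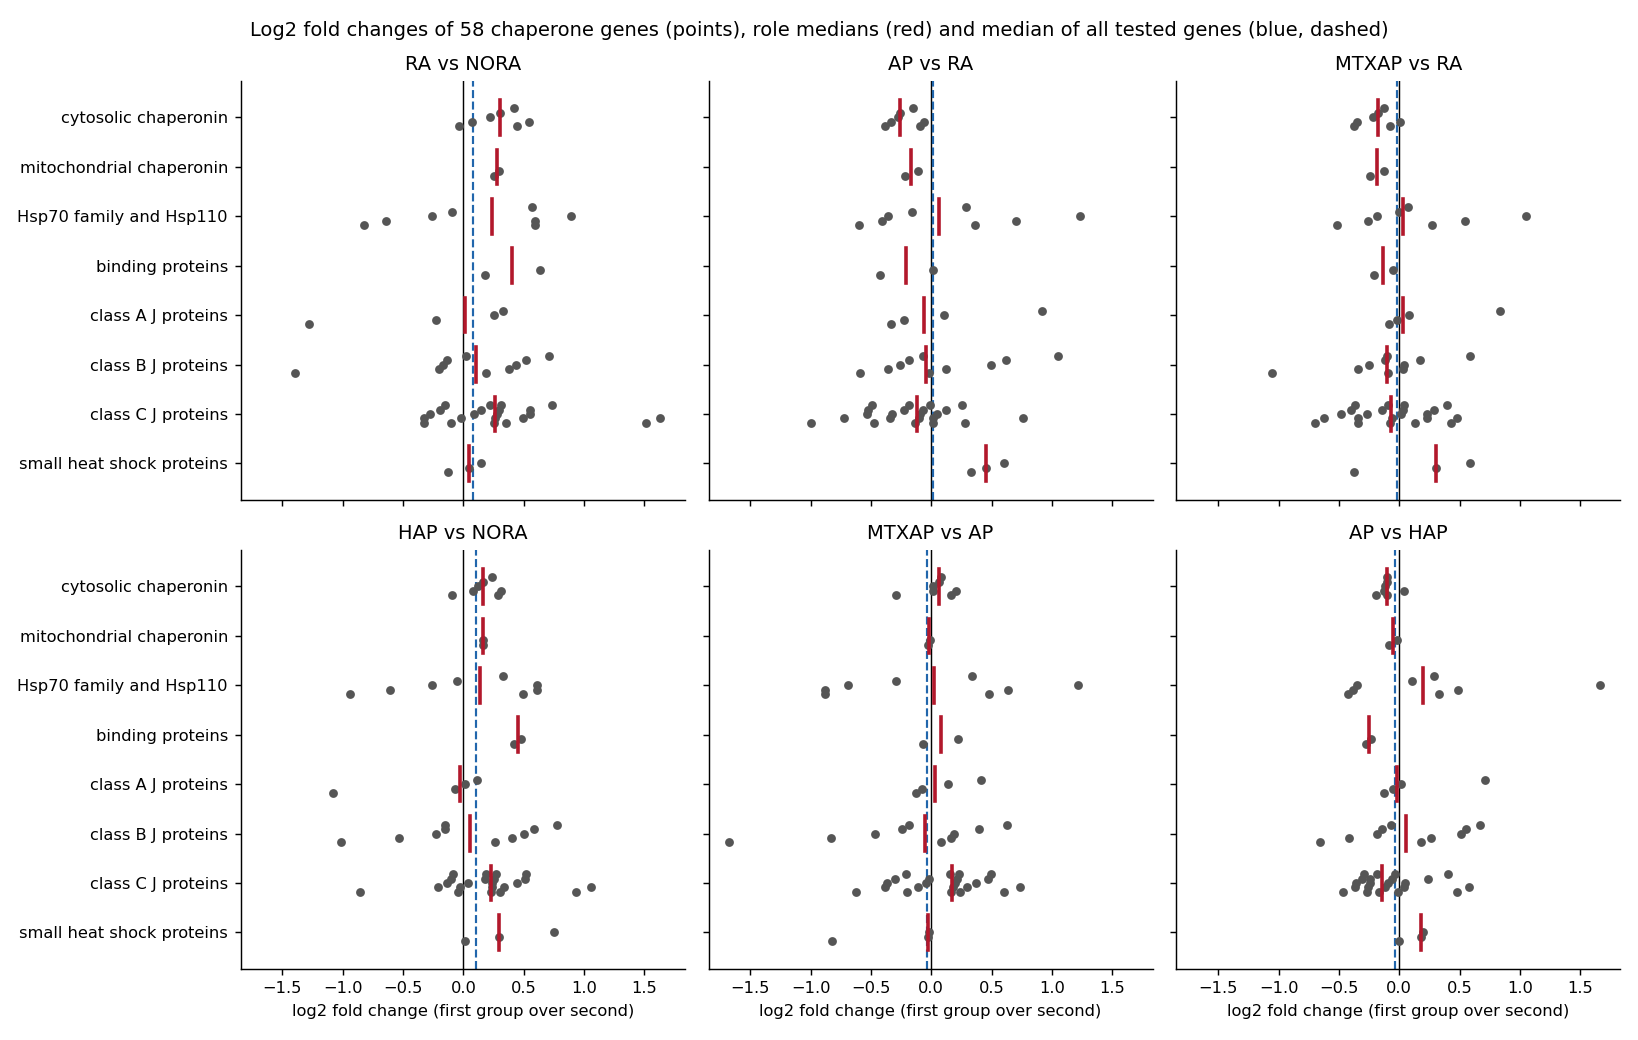
Each point is the log2 fold change of 1 of the 58 tested chaperone genes in 1 of the 6 comparisons (first group named over the second), in rows by role, with the median of the role in red and the median of all tested genes as a dashed blue line. In RA vs NORA 6 of the 7 CCT points lie above 0 and in AP vs RA all 7 lie below 0. Both comparisons use the same RA arrays with opposite sign, so they are not independent. The points furthest to the left are Dnajb2 and Dnaja4 in RA vs NORA and Dnajb13, which passed the filter through AP alone, in MTXAP vs AP.

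The difference between the change in arthritic rats (AP over RA) and that in healthy rats (HAP over NORA) was tested in the same model. No member was called by limma (lowest adjusted p = 0.360, 0% of all tested genes called), 7 were at an unadjusted p under 0.05 (12.4% of all tested genes), and 3 were past the thresholds of the study in the higher direction (5.35%) and 0 in the lower (3.69%). The difference was 2.00 ± 0.67 (log2, SE) for Dnaja4, 2.07 ± 0.85 for Dnajb2 and 1.31 ± 0.50 for Hspa4, and among the lower ones -0.72 ± 0.28 for Dnajc2, -0.998 ± 0.42 for Dnajc4, -0.67 ± 0.31 for Dnajc19 and -0.87 ± 0.39 for Dnajc7, a cochaperone with sites for Hsp70 and Hsp90. The difference without NORA replicate 3 was 1.68 for Dnaja4, 1.55 for Dnajb2, 1.25 for Hspa4, -0.58 for Dnajc2, -0.61 for Dnajc4, -0.51 for Dnajc19 and -0.63 for Dnajc7, and without RA replicate 1 it was 0.80 for Hspa4. All 12 platelet markers were above 0 in the same difference, with a median of 2.42, and 14 of 15 erythroid markers, with a median of 1.61, and their part was not tested. The medians of these markers without NORA replicate 3 were 2.01 and 0.81, with the same counts above 0. With weights for array quality Dnaja4 (2.21, adjusted p = 0.0211), Dnajb2 (2.07, adjusted p = 0.0440), Hspa4 (1.60, adjusted p = 0.0446) and Dnajc7 (-0.97, adjusted p = 0.0392) were called, beside 8.92% of all tested probe sets. The second probe set of Dnaja4 had 2.66 in this difference, but that of Dnajb2 had -1.06 and that of Dnajc7 2.89, with a mean over the probe sets of 0.72, so that both turn their sign with the probe set. Dnajc2 turned its sign too, with 1.88 on the second probe set and 0.58 on the mean over the probe sets. The weights for array quality were 0.321, 2.83 and 0.289 for NORA replicates 1, 2 and 3. Without NORA replicate 1, Dnaja4 (2.53, adjusted p = 0.0304) and Dnajc7 (-1.17, adjusted p = 0.0499) were called, beside 5.29% of all tested probe sets. Of the 58 members 18 were above 0 (43.4% of all tested genes), with a median of -0.27 over the members and -0.10 over all tested genes, and all 7 Cct genes were below 0, with a median of -0.50. Without NORA replicate 3 the median was -0.21 over the members and -0.31 over the Cct genes, of which 6 were below 0. In the difference on all arrays 12 of the 16 tested T cell markers were below 0 too, with a median of -0.45, and their part was not tested.

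Probe sets of 1 gene did not always measure the same change. Of the tested members, 24 have several probe sets, and for 17 of them 19 further probe sets passed the filter. In RA against NORA 11 of these 19 had the sign of the probe set used, in AP against RA 12, and in MTXAP against AP 14. The second Dnaja4 probe set had -0.87 in RA against NORA and 0.78 in AP against RA, the signs of the first. That of Dnajc7 had -1.52 where the one used had 0.56 in RA against NORA, and 1.34 where it had -0.53 in AP against RA. The second probe set of Dnajb2 lay below the filter and had 1.14 in RA against NORA. Hspa9 kept its sign on both further tested probe sets in these 2 comparisons, with 0.27 and 0.37 in RA against NORA and -0.40 and -0.24 in AP against RA.

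Partner genes of the chaperones were read from lists of textbook members, some of which hold members described above, and in none of them was a gene called by limma in any comparison (lowest adjusted p = 0.187, for Jun in MTXAP against AP). For all lists, RA against NORA and AP against RA share the RA arrays with opposite sign, so their counts are not independent. Of 19 tested genes of the Hsp90 family and its cochaperones, 12 were above 0 in RA against NORA (median 0.15) and 7 in AP against RA (median -0.05). Hsp90ab1, the constitutive cytosolic Hsp90, had 10512, 11103 and 9944 in AP, 11980.1 and 12474 in RA, and 11014, 9649 and 10014 in NORA. RA lay above both without overlap (0.26 ± 0.19 against NORA, limma adjusted p = 0.624, and 0.25 without NORA replicate 3). So did 12.7% of all tested genes against NORA and 19.6% against AP. MTXAP had 8614, 8832 and 11519. HAP had 11017, 12970 and 10774, with HAP replicate 2 above both RA arrays. Of 11 tested partner and exchange factors of Hsp70, 9 were above 0 in RA against NORA (median 0.37), among them Sil1, the exchange factor of BiP, with 152 and 169 in RA, against 39.7, 129 and 34.5 in NORA (1.52 ± 0.60). Sil1 had 159, 155 and 288 in HAP and differed from the same NORA arrays by 1.78 ± 0.54. The value of Sil1 without NORA replicate 3 was 1.16 in RA and 1.43 in HAP against NORA. Of 16 tested genes of prefoldin (which hands actin and tubulin to CCT), Tcp1 and further cofactors, 11 were above 0 in RA against NORA (median 0.27) and 4 in AP against RA (median -0.16). Tcp1, the remaining CCT subunit, had -0.06 ± 0.24 and -0.01 ± 0.24. The medians in RA against NORA without NORA replicate 3 were 0.15 for the Hsp90 list, 0.21 for the partner and exchange factors and 0.18 for the prefoldin list.

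Of the 13 tested core targets of heat shock factor 1, 8 were above 0 in RA against NORA (median 0.16), 5 in AP against RA (median -0.02), 4 in MTXAP against RA (median -0.08), 3 in MTXAP against AP (median -0.07) and 9 in HAP against NORA (median 0.16), and 1, Hspa1a in AP against RA, was past the thresholds of the study. Hsf1, the factor itself, had 751, 573 and 784 in MTXAP, against 572, 449.5 and 564 in AP (0.41 ± 0.24). Of the 24 tested genes of the unfolded protein response, 19 were above 0 in RA against NORA (median 0.24), 6 in AP against RA (median -0.13) and 16 in MTXAP against AP (median 0.10). Herpud1, a part of the degradation complex of the endoplasmic reticulum, had 8567, 9034 and 11498 in MTXAP, against 3760.4, 2421 and 2219.9 in AP (1.82 ± 0.50, limma adjusted p = 0.191), the lowest p of that list in this comparison. Of the 13 tested immediate early and stress genes, 10 were above 0 in MTXAP against RA (median 0.52), 10 in AP against RA (median 0.36) and 7 in MTXAP against AP (median 0.03). Their mean, each gene centred over the arrays, was -0.34 on MTXAP replicate 1 and 0.89 and 0.93 on replicates 2 and 3. Jun, a part of the AP-1 factor, had 1340.1, 5950.1 and 3186 in MTXAP, against 784 and 885 in RA (1.82 ± 0.51). Of the 12 tested genes of mitochondrial protein quality control 9 were above 0 in RA against NORA (median 0.12) and 5 in AP against RA (median -0.20). In RA against NORA without NORA replicate 3 the medians were 0.08 for the targets of heat shock factor 1 (9 of 13 above 0), 0.20 for the unfolded protein response (19 of 24) and 0.06 for the mitochondrial list (7 of 12), and that of the heat shock factor 1 targets in HAP against NORA was 0.0030 (7 of 13).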

How the data were processed

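RNA of PBMC was hybridised to 14 rat expression arrays of Affymetrix. The deposited values are MAS5 intensities on a linear scale, which the authors made with the affy package (version not given in the sources used here), and each array had a trimmed mean of 500 after leaving out 2% at each end, so levels are relative to the array. The 57 control probe sets were left out, and of the others 20826 carried 1 symbol, 436 several and 9780 none. Symbols came from the platform annotation. The model of limma (version 3.58.1, under R 4.3.3) took log2 intensities as they are, without a pseudocount, and estimated a mean for each of the 5 groups, 6 comparisons, 1 difference between comparisons and moderated two-sided tests with Benjamini-Hochberg adjustment over 18515 probe sets above the array median on at least 2 arrays. In a simulation of AP against RA on 18515 probe sets, 70 of 100 genes with a log2 change of 2 and 91 of 100 with one of 4 were called, as were 15 of 18315 unchanged ones. Most changes of the members were smaller than those simulated, and in AP against RA all were (-0.995 to 1.24). The simulated noise was normal and independent between probe sets, without outlying arrays. These shares therefore do not tell how many changes of the members would be called. Genes named in the text were fixed members, those past the study's thresholds (or the 3 lowest p per direction where fewer passed), those with the 5 highest and 5 lowest SDs, those not tested, and partner genes past the thresholds. Others were named after their values were seen. The members, lists and tests were chosen with earlier results of these data known. The arrays NORA 3 and MTXAP 3, other normalizations, filters, weights, probe sets, a replicate block and each array left out were tried as alternatives. The number of arrays limits the precision, and the RA group has 2. Sequences are from RefSeq (GRCr8). Python 3.11.15 was used for the summaries.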

Additional observations from a re-analysis of the deposited data

How the results depend on the processing

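The counts and medians of the members were recomputed under 27 alternatives, 14 of which left out 1 array. Of the single gene values, 1104 of 1129 kept their direction and their side of the adjusted threshold, 7 passed it, and 18 reversed, all of them with other probe sets of the gene. Many could not reverse. Leaving out an array of another group, dropping moderation, adding a variance trend or fitting only the groups compared leaves the log2 fold change as it was. As no member was called on all arrays, only a new call could change the side. The share kept is therefore no measure of stability. Members called at an adjusted p under 0.05 numbered 0, except under array quality weights (1 in RA against NORA and 4 in the difference between arthritic and healthy rats) and in that difference without 1 array (0 to 2).

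Members past the study's thresholds numbered 2 in RA against NORA, 1 each in AP against RA, MTXAP against RA, HAP against NORA and MTXAP against AP, 0 in AP against HAP and 3 in the difference. In the same order, leaving out 1 array gave 0 to 5, 0 to 2, 0 to 2, 0 to 3, 1 to 2, 0 to 1 and 2 to 9. Quantile normalization gave 1 in RA against NORA and 0 in AP against RA. With no filter there were 2 in AP against RA, 2 in MTXAP against RA, 5 in HAP against NORA and 1 in AP against HAP. With signals above the median on 7 arrays there were 0 in MTXAP against RA and 0 in MTXAP against AP. MTXAP against RA also had 0 after adding 32 to the signal and 0 with a mean-variance trend. Without moderation there were 1 in RA against NORA and 0 in AP against RA, MTXAP against RA and HAP against NORA. Array weights gave 4 in RA against NORA and 2 in each of AP against RA, HAP against NORA and MTXAP against AP. Fits of the 2 groups alone gave 0 in RA against NORA, 0 in HAP against NORA and 2 in MTXAP against AP. Without NORA 3 and MTXAP 3 there were 0 in RA against NORA, 2 in AP against RA, 4 in MTXAP against RA, 2 in HAP against NORA and 1 in AP against HAP. The mean of all probe sets gave 0 in RA against NORA, 2 in HAP against NORA and 2 in AP against HAP, and the second probe set 1 in RA against NORA, 2 in AP against RA, 3 in HAP against NORA, 2 in MTXAP against AP, 2 in AP against HAP and 5 in the difference. The share of all tested genes past these thresholds is not given for each alternative, so the counts are not a result about chaperones. Calls at an adjusted p under 0.05 moved over all tested probe sets too. They went from 0% to 4.13% in RA against NORA with array weights. In the difference they went from 0% to 5.29% without NORA replicate 1, the setting that gave 9 members. The cause was not tested.

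The replicate numbers mark no shared animal, since rats were killed at sampling, and the deviations of same-numbered arrays had correlations of -0.42 to 0.37 (median 0.05, 26 pairs). With the replicate number as a block, 1 member was past the thresholds in RA against NORA, 0 in AP against RA and 0 in MTXAP against RA.

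Setting the arrays to a common median moved the median of the members to 0.46 in RA against NORA, -0.24 in AP against RA, -0.23 in MTXAP against RA, 0.0067 in AP against HAP and -0.40 in the difference, where the median of all tested probe sets was 0.29, -0.14, -0.16, 0.05 and -0.24. Without NORA 3 and MTXAP 3 it was 0.13 in RA against NORA, 0.043 in HAP against NORA and -0.062 in MTXAP against AP. Leaving out 1 array gave 0.13 to 0.31 in RA against NORA, -0.15 to -0.11 in AP against RA, -0.15 to -0.01 in MTXAP against RA, 0.043 to 0.25 in HAP against NORA, -0.062 to 0.10 in MTXAP against AP, -0.13 to -0.05 in AP against HAP and -0.35 to -0.21 in the difference.

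With the second probe set, log2 changes of the other sign were found for Dnajb2 in RA against NORA (1.14) and in the difference (-1.06), Dnajc2 in AP against RA (0.12), AP against HAP (0.78) and the difference (1.88), Dnajc7 in AP against RA (1.34) and the difference (2.89), Dnaja4 in MTXAP against RA (-0.23), Dnajc6 in HAP against NORA (0.99), Dnajb14 in MTXAP against AP (0.36) and AP against HAP (-0.97), and Dnajc10 in AP against HAP (-0.42). With the mean of all probe sets they were found for Dnajc7 in AP against RA (0.29) and the difference (0.72), Dnajc6 in HAP against NORA (0.069), Dnajb14 in AP against HAP (-0.19), and Dnajc2 in AP against HAP (0.21) and the difference (0.58). Dim probe sets, such as those of Dnajb13 and Hspa12a, lie below the array median on all but 2 arrays, which limits what their changes can show.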
